A study of Oreochromis niloticus with 12 samples.

Results

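Small nucleolar RNAs (snoRNAs) were examined in fast muscle of Nile tilapia, Oreochromis niloticus. A gene was taken when the RefSeq annotation gives it the type snoRNA and its mean raw count over the 12 libraries was at least 10, which left 65 of the 179 snoRNA genes in the tables and of 42609 genes in all. The 65 were thus selected on their counts, so their levels are given as a description, without a test. The rule did not use the comparison of domesticated with wild fish, but the snoRNAs were chosen with earlier results of these data known.

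The libraries came from 6 domesticated and 6 wild females, each sampled at 5 months of age and each given as 1 library. The domesticated fish (D) were the first generation kept under domestication, and the wild fish (W) were taken as progenitors. Each D fish was genetically matched to 1 W fish, and the 6 pairs carry the numbers 53, 63, 66, 68, 70 and 72. Total RNA was depleted of ribosomal RNA, made into strand-specific libraries and sequenced on 1 lane, with no selection for a poly(A) tail, which mature snoRNAs lack.

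snoRNAs are short nuclear RNAs that work in the nucleolus, where ribosomal RNA is made and modified. Box C/D snoRNAs pair with ribosomal RNA and direct methylation of its riboses by fibrillarin, box H/ACA snoRNAs direct the change of uridine to pseudouridine by dyskerin, and a few take part in cutting the ribosomal RNA precursor. Most vertebrate snoRNAs are trimmed out of introns of a host gene after splicing, and many host genes encode ribosomal proteins or other parts of the translation machinery. Box H/ACA snoRNAs are usually longer than box C/D snoRNAs. The annotation used here names each tilapia snoRNA by a LOC number alone, so box type, family and target are not given below and the genes are described by position, length and host.

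The 65 snoRNA genes lie on 19 linkage groups (LG) of the assembly O_niloticus_UMD_NMBU. They are 99 to 321 bp long with a median of 136 bp, and 40 of them measure 120 to 140 bp. The 114 snoRNA genes below the count limit have a median length of 81.5 bp, and 11 of them had no counted read (0) in any library. None of the 56 snoRNA genes of up to 80 bp reached the limit, and 1 of the 32 genes of 81 to 100 bp did. In contrast, 40 of 58 genes of 121 to 140 bp, 6 of 7 genes of 141 to 180 bp and 14 of 20 longer genes were above it. Across all 179 genes the Spearman correlation of mean count with length was 0.65, a description over genes that share the same libraries. How well RNAs of each length were recovered in the libraries was not tested. Low counts of the short genes therefore need not mean few molecules. The 65 genes held 99.7% of all snoRNA counts, and those over 140 bp, 20 genes, held 93.4% of the counts of the 65.

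**Figure D1:**
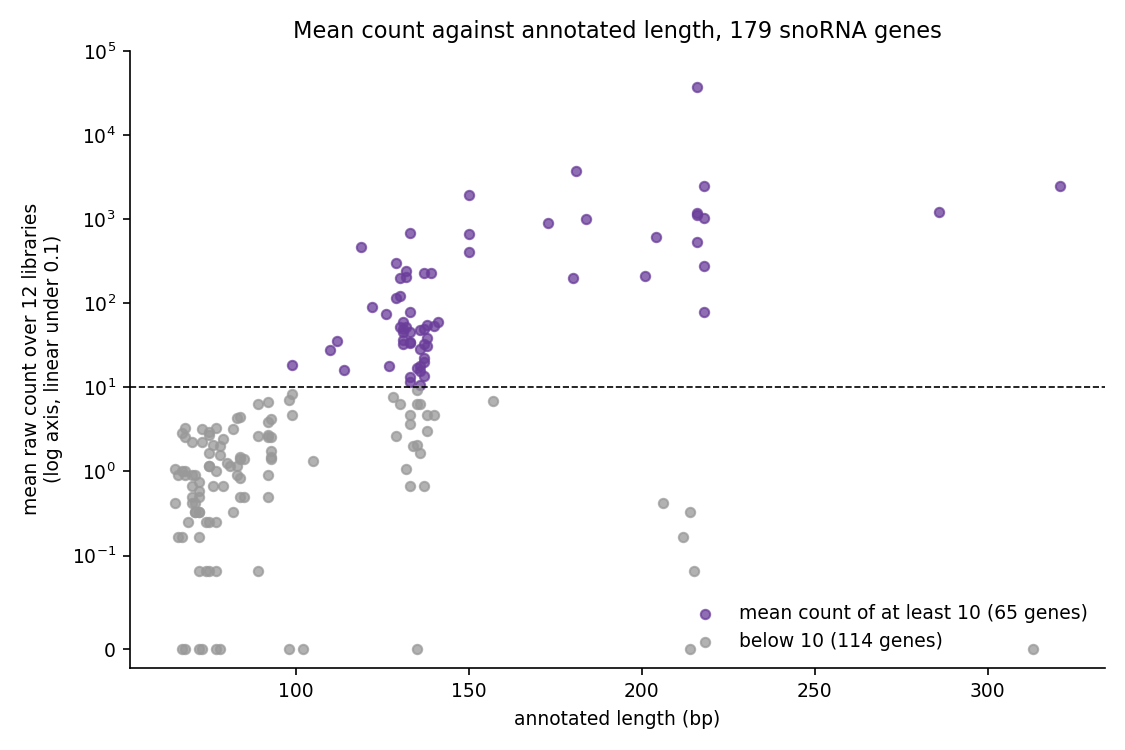
Mean raw count over the 12 libraries (vertical, log axis that is linear under 0.1) against annotated length in bp (horizontal) for 179 snoRNA genes. Purple points are the 65 genes with a mean count of at least 10 (dashed line), grey points the other 114. No gene of up to 80 bp reaches the line, and the highest point is a gene of 216 bp.

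Close to the limit, LOC112847015 in the span of ahcy had a mean of 11.5 counts (0 to 27 in single libraries) and LOC112848100 in cct6a a mean of 10.8 counts (1 to 32). Just below it stood LOC112842562 with 9.33 counts (0 to 21) and LOC112847611 in rpl4 with 8.25 counts (0 to 25). A library at 0 still allows up to 3 counts by counting error, which is 0.423 CPM in W53, where CPM is the count scaled to a library total of 1000000.

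One snoRNA gene carried most of the signal. LOC112847244, at LG6:29779947-29780162 (216 bp), held 60.6% of the counts of the 65 genes, and its share within a library was 47.8% to 67.8%. It lies in the span of vps37a, which encodes a subunit of the endosomal sorting complex ESCRT-I. The library totals behind CPM were scaled by the trimmed mean of M-values (TMM). LOC112847244 reached 5021, 2412, 3873, 18259, 4564 and 4422 CPM in D53, D63, D66, D68, D70 and D72, against 394, 8169, 10885, 5958, 6893 and 3665 CPM in W53, W63, W66, W68, W70 and W72. D68 was the highest library and W53 the lowest, and the ranges of the groups overlapped. Per length it averaged 28749 CPM per kb, 8.46 times the next snoRNA gene. The reads were sequenced in pairs, each about as long as most of these snoRNAs. A value per kb, here and below, therefore need not follow the number of molecules. Genes with near-identical copies are uncertain, since 44.7% to 60.2% of the aligned reads of a library fitted more than 1 place and were not counted.

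The second by level was LOC112844248, at LG16:20770653-20770833 (181 bp) within rpl24, a gene of the large ribosomal subunit. It had a lowest, median and highest level of 160.5, 399.8 and 1781 CPM in domesticated fish, and of 60.6, 536.8 and 1503 CPM in wild fish. LOC112848295 (LG11:23078936-23079256, 321 bp) and LOC112848294 (LG11:23080033-23080318, 286 bp) both lie in ncapd2, which encodes a condensin subunit. LOC112848295 had 251.3, 406.8 and 638.6 CPM as lowest, median and highest in domesticated fish, against 72.2, 390.6 and 630.4 CPM in wild fish. It was the steadiest of the 38 genes with a mean count of at least 50, with a coefficient of variation (CV) of 0.377. LOC112848294 had 116.4, 193.8 and 448.5 CPM in domesticated fish, against 22.0, 144.3 and 398.3 CPM in wild fish. In both genes the wild library W53 was the lowest of the 12.

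Ribosomal protein genes of the small subunit hold a further set. LOC112842547 in rps7 (LG15:22997350-22997567, 218 bp) had 146.2, 479.6 and 893.1 CPM in domesticated fish, against 55.4, 317.4 and 484.9 CPM in wild fish. LOC112842292 in rps3 (LG14:36528496-36528645, 150 bp) had 27.0, 253.7 and 483.6 CPM in domesticated fish, against 10.9, 259.3 and 1241 CPM in wild fish. LOC112843027 (LG18:10206450-10206633, 184 bp) lies in eif4a2, a helicase gene of translation initiation, and had 51.3, 179.4 and 340.5 CPM in domesticated fish, against 27.3, 110.9 and 407.3 CPM in wild fish. Per kb, LOC112842292 averaged 2128 CPM, LOC112842547 1819 CPM and LOC112848295 1240 CPM, below the 3397 CPM per kb of LOC112844248.

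The 10 genes with the highest mean CPM together held 86.9% of the counts. Below them the levels, here not corrected for length, were much lower: 15 of the 65 genes averaged over 100 CPM, 32 averaged under 10 CPM, and the lowest averaged 1.65 CPM.

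**Figure D2:**
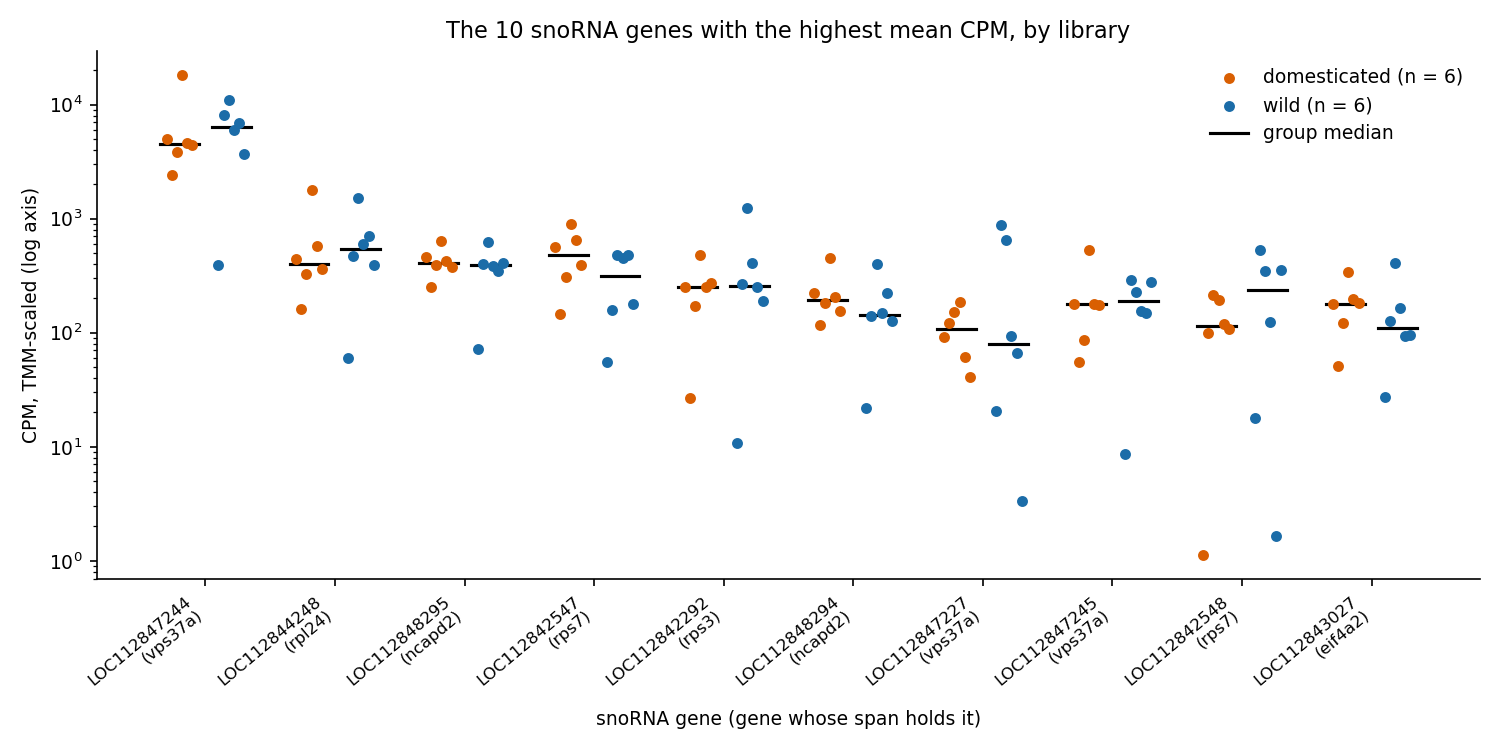
CPM on a log axis for the 10 snoRNA genes with the highest mean level, with the gene whose span holds each in brackets. Each point is 1 library, domesticated (orange, n = 6) left of wild (blue, n = 6), and black bars are group medians. In all 10 genes the points of both groups overlap, and LOC112847244 stands above the others in every library.

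The libraries differed widely in their total snoRNA level. The 65 genes summed to 8451, 3698, 6660, 26935, 8768 and 7639 CPM in D53, D63, D66, D68, D70 and D72, against 824, 12759, 20235, 9766, 10316 and 6543 CPM in W53, W63, W66, W68, W70 and W72. D68 and W66 were the highest of the 12, and W53 and D63 the lowest. The mean was 10358 ± 8323 CPM in domesticated fish and 10074 ± 6460 CPM in wild fish (SD, n = 6 each), so the difference was far smaller than the spread within either group. The level was higher in the domesticated fish in 3 of the 6 pairs. In bulk RNA fewer cells of a type and less RNA per cell cannot be told apart. Of the 65 snoRNAs, 51 had their lowest level in W53 and 11 in D63, while 30 had their highest in D68 and 29 in W66.

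Other short nuclear RNAs ran with this total. The spliceosomal and related small nuclear RNA (snRNA) genes summed to 168.5 CPM in D63 and 4176 CPM in D68, and to 123.4 CPM in W53 and 3115 CPM in W66, again the 2 lowest and the 2 highest of the 12 libraries. The highest snRNA gene, LOC112842301 on LG14, had 109.2, 525.1 and 2734 CPM as lowest, median and highest in domesticated fish, against 77.3, 904.8 and 1664 CPM in wild fish. The share of aligned reads assigned to no annotated transcript was lowest in D63 (6.97%) and W53 (7.93%), and highest in W70 (19.4%), W66 (14.3%) and D68 (13.7%). The counts over all genes were smallest in W66 (3395622), D68 (4312367) and W70 (4870078) of a range up to 8478988. Ribosomal RNA genes took 7.77% of the gene counts in D63, 3.73% in D68 and 3.68% in W53, and 1.28% to 2.88% in the other 9 libraries. The part of depth and of these read shares in the snoRNA totals was not tested.

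**Figure D3:**
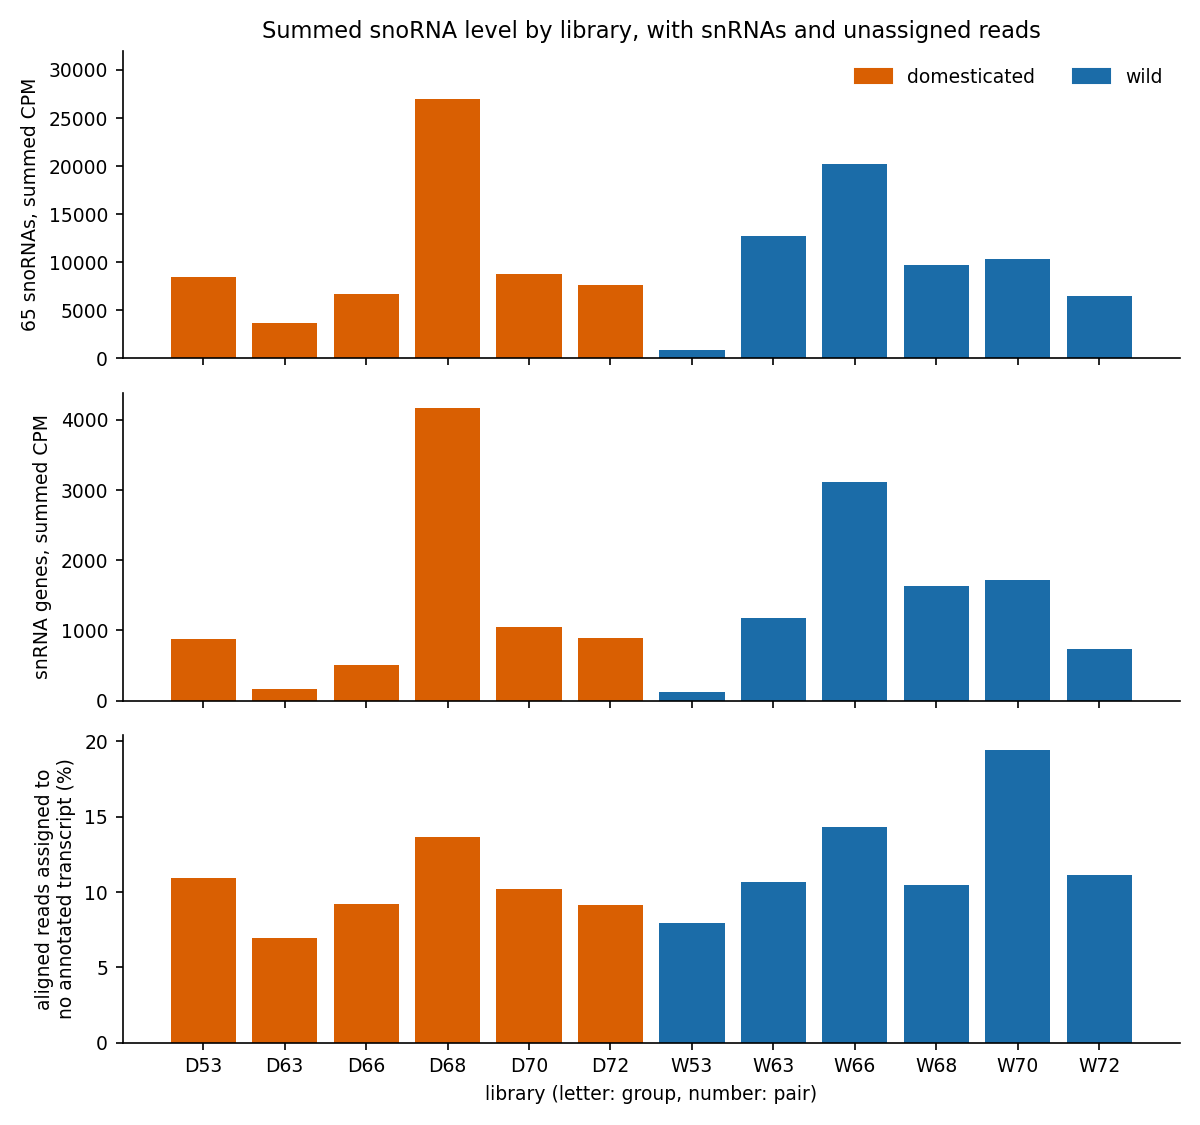
Summed CPM of the 65 snoRNA genes (top), summed CPM of all snRNA genes (middle) and percentage of aligned reads assigned to no annotated transcript (bottom), 1 bar per library, domesticated (orange) left of wild (blue). W53 and D63 are the lowest bars of each panel, and D68 and W66 the highest of the upper panels.

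In W53 all 65 snoRNAs were below their median of the other libraries (D63 left aside), with a median difference of -3.30 on the log2 scale, and in D63 63 of 65 were below it (W53 left aside), with a median of -2.26. In W66 1 of 65 was below, with a median of 1.56, and in D68 9 of 65 were below, with a median of 1.20. The deficit was not the same at each length in D63: its median was -2.63 for the 45 snoRNAs of up to 140 bp, -3.03 for the 6 of 141 to 180 bp and -1.43 for the 14 longer ones. In W53 the medians of the same classes were -3.42, -3.81 and -3.09. The 14 longer ones include 4 in rps7 and 3 in vps37a, and 3 of the 6 of 141 to 180 bp lie in rps3. Length can therefore not be told apart from host or level here. W53 and D63 still counted a read for 60 and 63 of the 65 genes, and the other 10 libraries for all 65.

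Levels of single snoRNAs were therefore uneven between libraries. The CV over the 12 libraries ranged from 0.377 to 1.70 with a median of 0.813 for the 65 genes, while the median over the 8425 genes that passed the filter on low counts was 0.44. Among the 38 with a mean count of at least 50, the steadiest after LOC112848295 were LOC112847623 in eif4g2b (CV 0.484), a translation initiation factor gene, and LOC112842549 in rps7 (CV 0.545). LOC112847623 had 50.2, 116.9 and 172.7 CPM as lowest, median and highest in domesticated fish, against 35.8, 161.7 and 284.3 CPM in wild fish. The most uneven were LOC112846578 (CV 1.70), LOC112843029 in eif4a2 (CV 1.40) and LOC112847227 in vps37a (CV 1.40). LOC112843029 had 147.3 CPM in D68 and 132.4 CPM in W66, but only 1.27 to 24.4 CPM in the other libraries.

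The snoRNAs varied together from library to library. Over the 2080 pairs of the 65 genes the median Spearman correlation across the 12 libraries was 0.70 (quartiles 0.54 and 0.82), beside 0.00 (quartiles -0.27 and 0.27) over all pairs of the 8425 genes. Only 10 pairs were below 0, and 209 were above 0.9. These points share library, depth and scaling, so the values are a description. On unscaled library totals the medians were 0.83 over the snoRNAs and 0.37 over all 8425 genes. The 10 snRNA genes with a mean count of at least 10 were closer still, with a median of 0.92. Several of these snRNA genes are equally long (191 or 115 bp) and may be copies that share reads, which was not tested. Without W53 and D63, a choice made after their totals were seen, the median over the snoRNAs was 0.53, beside -0.01 over all 8425 genes. The closest pairs were LOC112847604 with LOC112847620 (0.99), and LOC112843648 with LOC112842716 and with LOC112843386 (0.99 each, ties broken by the Pearson correlation). The least like the rest was LOC112842548 in rps7, whose median correlation with the other 64 was 0.26, followed by LOC112842550 in rps7 (0.35).

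Of the 65 snoRNAs, 63 lie within the span of another gene, which is called its host here. Strand, introns and exons of the hosts were not given in the table used. The hosts are 45 genes: 56 snoRNAs lie in protein-coding genes, 23 of them in 15 ribosomal protein genes, and 7 lie in long noncoding RNA genes. The 2 without a host, LOC112843654 and LOC112843661, are both on LG22. Other hosts also belong to the translation and nucleolar machinery, among them nop56, ncl (nucleolin) and nifk. Levels of snoRNA and host were weakly related across libraries. Over the 47 snoRNAs whose host passed the filter, the median Spearman correlation with the host across the 12 libraries was 0.08 (-0.48 to 0.56), and 28 of the 47 were above 0. The 47 lie in 34 hosts, so some hosts enter more than once. Of these 34 hosts, 3 have more than 1 annotated transcript and may lack reads, as described below. LOC112847244 averaged 6210 CPM while its host vps37a averaged 0.56 CPM, and ncapd2 averaged 0.308 CPM. Both hosts have more than 1 annotated transcript, and the deposited tables count reads per transcript: of all protein-coding genes, the median of the mean count was 6.75 for 16540 genes with 1 transcript and 0.25 for 13009 genes with more. Reads that lie in more than 1 transcript may be missing from such hosts, so these 2 levels cannot be read as the host's expression. The 33 hosts with 1 transcript had a median of the mean count of 1214 (0.833 to 8675), and the 12 with more had 3.67 (0.25 to 33). Among the hosts with 1 transcript, rpl24 averaged 532.9 CPM, rps7 871.3 CPM and rps3 703.6 CPM.

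Several hosts hold more than 1 snoRNA of the same length, which may be copies that share reads. The span of vps37a holds 8 annotated snoRNA genes. Its 3 genes of 216 bp, LOC112847244, LOC112847227 (LG6:29780761-29780976) and LOC112847245 (LG6:29782361-29782576), were counted, while the other 5, of 206 to 215 bp, had 0 to 5 counts in all 12 libraries together. LOC112847244 held 93.1% to 96.2% of the counts of the 3 in domesticated fish, against 87.4% to 97.0% in wild fish. LOC112847227 had 91.1, 122.6, 150.9, 187.2, 61.0 and 40.6 CPM in D53 to D72, against 20.7, 888.0, 647.7, 94.1, 66.2 and 3.33 CPM in W53 to W72. W63 and W66 were far above the rest and W72 far below, with 24 counts there against 1996 of LOC112847245. LOC112847245 had 55.2, 177.4 and 534.2 CPM as lowest, median and highest in domesticated fish, against 8.60, 191.0 and 290.8 CPM in wild fish.

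The 4 snoRNAs of rps7, all of 218 bp, changed places between libraries. LOC112842547 held 52.2% to 92.7% of their counts in domesticated fish, against 18.9% to 90.5% in wild fish. LOC112842548 (LG15:22999323-22999540) took 0.184% in D53 (10 of 5439 counts, exact 95% interval 0.0882% to 0.338%), 35.7% in D63, 38.2% in D66, 17.2% in D68, 15.1% in D70 and 19.7% in D72. In wild fish it took 20.6% in W53, 63.3% in W63, 37.5% in W66, 19.3% in W68, 0.306% in W70 (14 of 4576 counts, exact 95% interval 0.167% to 0.513%) and 58.8% in W72. It was thus nearly absent in 1 library of each group, with 1.12 CPM in D53 and 1.64 CPM in W70. LOC112842547 had its 2 highest shares in the same libraries, but the 4 shares of a library are bound to each other. In CPM, LOC112842547 had 564.9 in D53, below 893.1 in D68 and 644.4 in D70. Its 484.9 CPM in W70 was the highest of the wild libraries. Across the 12 libraries LOC112842547 and LOC112842548 had a Spearman correlation of -0.15. The intervals take in counting error alone, as no molecular identifiers were read, and the part of uncounted reads that fitted several places was not tested.

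In rps3 the shares of the 3 snoRNAs of 150 bp were steadier. Their order still differed in some libraries: LOC112842291 was above LOC112842294 in D63 and D68, and LOC112842294 was just above LOC112842292 in W53. LOC112842292 held 57.6% to 62.9% of their counts in domesticated fish, against 44.0% to 69.3% in wild fish. LOC112842291 (LG14:36527255-36527404) held 16.8%, 22.1%, 16.1%, 24.8%, 15.8% and 18.3% in D53 to D72, against 11.4%, 14.02%, 7.37%, 10.7%, 13.3% and 12.9% in W53 to W72. The groups did not overlap in this share. It was the only one of 21 shares in 14 hosts with that property, was singled out after the values were seen and was not tested. In CPM, 5.01% of the 8425 genes had groups that did not overlap, and none (0) of the 65 snoRNAs did.

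**Figure D4:**
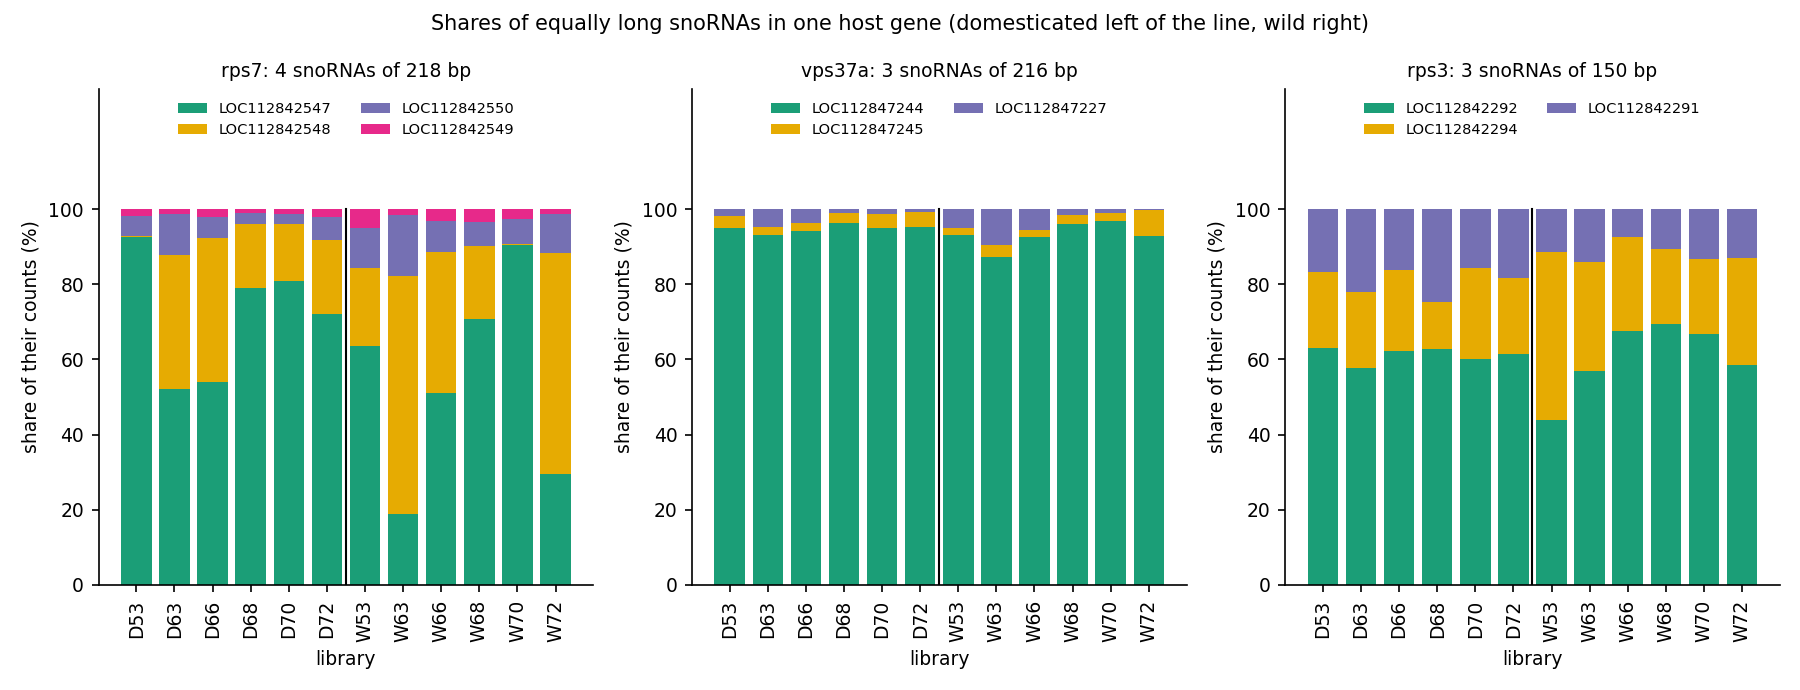
Share of the counts of equally long snoRNAs in 1 host gene, in percent, for rps7 (4 genes of 218 bp), vps37a (3 genes of 216 bp) and rps3 (3 genes of 150 bp), with 1 stacked bar per library, domesticated left of the line and wild right of it. In rps7 LOC112842548 is nearly missing in D53 and W70, and in vps37a LOC112847244 fills 87.4% to 97.0% of each bar.

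Domesticated and wild fish were compared gene by gene with limma over all 8425 genes that passed the filter, 64 of the 65 snoRNAs among them. None (0) of the 64 snoRNAs passed an adjusted p of 0.05, while 13.3% of all tested genes did (1120 genes, 561 higher and 559 lower in domesticated fish). None (0) was below an unadjusted p of 0.05 either, beside 30% of all tested genes (2527), and the same test with voom weights also gave 0. The log2 fold changes ranged from -1.06 to 1.68 with a median of 0.25, 42 positive and 22 negative, beside a median of -0.02 over all tested genes. This does not show that the levels were alike, because the error of the snoRNAs was large. Their SE had a median of 0.77 on the log2 scale, beside 0.34 over all tested genes, of which 2.77% exceeded 0.77. The direction rested on single libraries: the median was -0.36 without W53, -0.10 without D68 and 0.61 without D63, and on library totals that were not scaled it was -0.14, where the median of all genes was -0.42.

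LOC112847244 had a log2 fold change of 0.29 (SE 0.70, 95% interval -1.21 to 1.78, adjusted p = 0.825) and was higher in the domesticated fish in 3 of 6 pairs. The narrowest interval of the 10 highest genes was that of LOC112848295, from -0.53 to 1.28 around 0.37. The widest was that of LOC112842548, from -3.55 to 2.89 around -0.33. The other 7 had log2 fold changes of -0.14 (LOC112842292) to 0.85 (LOC112842547), with adjusted p-values of 0.314 and above.

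The largest positive value belonged to LOC112846578, at LG3:23140223-23140438 within the long noncoding RNA gene LOC109201314. Its 216 bp equal the length of the 3 counted genes in vps37a, and no other snoRNA gene has that length. It had 6.95, 30.3, 50.5, 629.1, 195.0 and 107.2 CPM in D53 to D72, against 3.10, 13.8, 100.8, 21.3, 51.2 and 27.1 CPM in W53 to W72. It was higher in the domesticated fish in 5 of 6 pairs, but D68 alone was above 200 CPM and the groups overlapped. The log2 fold change was 1.68 (SE 0.99, adjusted p = 0.276), and with the pairs as a block it had an adjusted p of 0.0939. The smallest adjusted p of all 64 was 0.267, for LOC112841898 in the long noncoding RNA gene LOC106096498, with a log2 fold change of -1.06 (SE 0.62).

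One snoRNA was called once a library was left out. LOC112842550, in rps7 at LG15:23000751-23000968, had 31.7, 30.3, 32.1, 32.2, 21.3 and 33.3 CPM in D53 to D72, against 9.30, 137.9, 79.4, 41.3, 35.0 and 62.7 CPM in W53 to W72. Only W53 was below the domesticated libraries, and the other 5 wild libraries were above all 6 of them. With all libraries the log2 fold change was -0.62 (SE 0.47, adjusted p = 0.404), and without W53 it was -1.09 (SE 0.31, adjusted p = 0.0392), where 11.1% of all tested genes were called. Without both W53 and D63 it was -1.10 with an adjusted p of 0.0513.

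**Figure D5:**
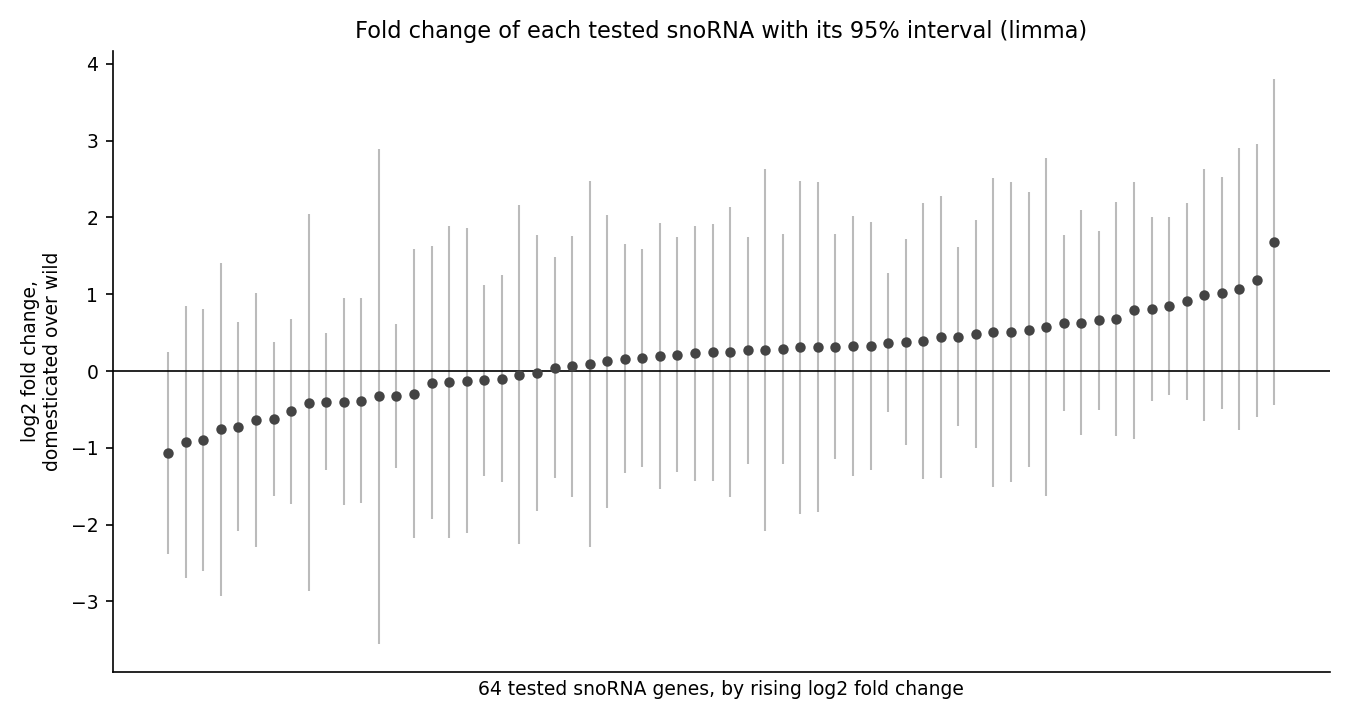
Log2 fold change, domesticated over wild, of the 64 tested snoRNA genes in rising order (points) with 95% intervals from limma (lines). All 64 intervals include 0, and the values run from -1.06 to 1.68.

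The host genes and the protein partners of snoRNAs were tested in the same fit, in which 13.3% of all tested genes were called. Of the 45 hosts 34 could be tested and none (0) was called, with a median log2 fold change of 0.07. Examples are rpl24 at 0.03 (SE 0.22), rps7 at 0.19 (SE 0.28), rps3 at 0.30 (SE 0.23) and eif4a2 at 0.06 (SE 0.23). Among the core proteins of box C/D particles, fbl (fibrillarin, the methyltransferase) averaged 18.6 ± 8.33 CPM in domesticated fish and 20.6 ± 9.58 CPM in wild fish (SD, n = 6 each), and nop56 114.3 ± 52.3 CPM in domesticated fish and 126.8 ± 46.6 CPM in wild fish. Neither of these 2 tested genes was called, nor were the 3 tested genes of the box H/ACA list (nhp2, nop10 and naf1). The dyskerin gene dkc1, gar1 and shq1 of that list did not pass the filter and were not tested. With 2 annotated transcripts, dkc1 averaged 0.0187 CPM in domesticated fish and 0.0232 CPM in wild fish, so reads may be missing from it. The 4 tested assembly factors and the 9 tested genes of the trimming and decay list were not called either (0 of each list). The 9 count nhp2 again, which is a gene of the box H/ACA particles. In a list of 8 tested nucleolar and Cajal body genes, 1 was called, a share near that over all genes: gemin2, a partner of SMN in the assembly of spliceosomal particles, averaged 5.39 ± 0.829 CPM in domesticated fish and 2.81 ± 1.12 CPM in wild fish (SD, n = 6 each). Its log2 fold change was 1.00 (SE 0.29, adjusted p = 0.0356), and it was higher in 6 of 6 pairs. With the pairs as a block its adjusted p was 0.0668, and on unscaled totals 0.423. The gene of nop58, the other scaffold of box C/D particles, has 2 annotated transcripts and was listed at 0 in every library.

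Markers of other cells were checked once. The fast muscle list (11 of 16 genes found) summed to 152934 to 328747 CPM in domesticated fish and 54985 to 319989 CPM in wild fish, and the slow muscle list (5 of 8) to at most 19.2 CPM in domesticated fish and 15.4 CPM in wild fish. The slow muscle genes tnnt1, atp2a2a and mybpc1 have 4, 3 and 9 annotated transcripts, so reads may be missing from them. The slow muscle sum therefore cannot be read as the amount of slow fibres. Beside the 13.3% called over all tested genes, the 3 tested genes of the red blood cell list (6 of 8 found) were called higher in domesticated fish: alas2, rhag and ank1a. Most of that list's sum was ank1a (710.0 CPM in domesticated fish, 275.1 CPM in wild fish), and the cells it came from were not tested. Of its untested genes, hbae5 averaged 0.909 CPM in domesticated fish and 1.30 CPM in wild fish, and gata1a 0.658 and 0.429 CPM. Also called higher were 1 of 4 tested fibroblast genes (col1a1b) and the 1 tested adipocyte gene (fabp4a). None (0) was called among the tested genes of fast muscle (8), slow muscle (1), leukocytes (4), endothelium (2) or nerve (1). The median log2 fold change was 0.67 in the fast muscle list and -0.59 in the leukocyte list. Leukocyte genes differed in direction: lcp1, the most abundant, was at 0.89 and higher in 6 of 6 pairs, while cd74a, coro1a and cd79a were negative. With the pairs as a block, the fibroblast genes col1a2 (adjusted p = 0.0326, against 0.061 without it) and dcn (adjusted p = 0.0217, against 0.0623 without it) were called as well. The fibroblast list summed to 285.5 CPM in W53, the lowest of the 12, and to 13838 CPM in D63, so the 2 libraries with the least snoRNA lay far apart in this list. The part of other cells in the snoRNA values was not tested.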

How the data were processed

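The authors deposited 1 table per library of whole-number read counts for annotated RefSeq transcripts, with no other normalization. Trimmomatic 0.33, STAR and HTSeq are the tools listed for them in the notes of the submitters. Aligner settings and the build of the counts were not given in the sources used here, and coordinates are those of the assembly O_niloticus_UMD_NMBU. Summary lines (reads with no feature, ambiguous reads and reads that fitted several places) were left out of the totals and made 9.23% to 16.2% (ambiguous) and 44.7% to 60.2% (several places) of aligned reads.

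Counts were summed over the transcripts of each gene, giving 3395622 to 8478988 gene counts per library. snoRNA genes were taken by annotated type and a mean count of at least 10. The snoRNAs and the gene lists were chosen with earlier results of these data known. A gene was tested (8425 were) when its count reached 10, after scaling to library size, in 6 or more libraries and its total reached 15. The log2 of CPM was taken on TMM-scaled totals, with 0.5, scaled in proportion to library size, added to each count. It was compared with limma 3.58.1 (trend and robust, two-sided) in R 4.3.3, with Benjamini-Hochberg adjustment over all tested genes and a threshold of 0.05. A fold change is domesticated over wild, and the added 0.5 shrinks it for genes of low count. The log-scale test was the planned one, because the layout of the tables kept their count unit from being checked by code, and no count model was run. Nothing in the labels says that a fish gave more than 1 library.

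On counts simulated from the 8425 genes for this comparison, limma found 22% of genes changed 2-fold and 95% of genes changed 4-fold. There were 6 false calls among 123, and 0 when no gene was changed. The simulation gave every gene the same relative spread. These shares therefore do not hold for the snoRNAs, whose median SE was 0.77 beside 0.34 over all tested genes.

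Equal numbers mark a genetic pair in the labels, which is where the pairing comes from. As a check, deviations from the group mean over all tested genes were correlated within pairs: 0.21 for pair 53, 0.12 for 63, 0.05 for 66, -0.10 for 68, -0.09 for 70 and 0.05 for 72. Their mean was 0.04, and -0.01 between fish of different numbers. The unpaired fit was the main one.

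Named snoRNAs were the 10 with the highest mean CPM, any called in the comparison, the 3 most and 3 least variable with a mean count of at least 50, the 2 on each side of the count limit and those of the 3 closest pairs. Others were named after their values were seen (LOC112842550, LOC112841898, LOC112842291). LOC112846578 was among the 3 most variable, but its fold change was taken up after the values were seen. Hosts are genes whose span holds the snoRNA. Exact binomial intervals at 95% were used for shares. No sequence was used here. Python 3.11 with pandas, NumPy and SciPy was used for the summaries.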

Additional observations from a re-analysis of the deposited data

Results flagged for a closer look

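Within each group of 6 fish, 44 sets of values of the summed snoRNA level and of the named snoRNAs were searched for a library far from the other 5. For normally distributed values chance alone marks about 1 in 20 such sets, and the sets share libraries. The search used CPM without logs, where high values stand out more and low ones less, so that rate need not hold. The search marked 17, of which 10 were high values of D68, 6 were high values of W66 and 1 was a low value of D63. W53, the lowest library for 51 of the 65 snoRNAs, was not marked.

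D68 stood above the other domesticated fish in the summed level (26935 CPM, others 3698 to 8768 CPM), LOC112847244 (18259 CPM, others 2412 to 5021 CPM), LOC112844248 (1781 CPM), LOC112848294 (448.5 CPM), LOC112847245 (534.2 CPM), LOC112843029 (147.3 CPM), LOC112846578 (629.1 CPM), LOC112842716 (102.7 CPM), LOC112843648 (38.4 CPM) and LOC112847604 (32.2 CPM).

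W66 stood above the other wild fish in LOC112842292 (1241 CPM, others 10.9 to 408.9 CPM), LOC112843027 (407.3 CPM), LOC112843029 (132.4 CPM), LOC112843386 (63.1 CPM), LOC112843648 (48.4 CPM) and LOC112847604 (23.9 CPM). D63 stood below the other domesticated fish in LOC112842549 (3.68 CPM, others 10.4 to 12.2 CPM).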

How the results depend on the processing

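The number of snoRNAs called was 0 under unscaled library totals (2 at an unadjusted p under 0.05, 691 of all genes called), median-of-ratios factors (0 at an unadjusted p under 0.05), no filter on low counts, a pseudocount of 2 and voom weights (994 genes), and among those with a mean count of at least 5 or 20. Leaving out each library in turn gave 0 to 1 snoRNA called. The 1 call was LOC112842550 without W53 (5 snoRNAs at an unadjusted p under 0.05), and the cause was not tested. Over all genes the same settings gave 615 to 1327 calls (615 without D70, 624 without D72, 655 without W66 and 677 without W70), and unscaled totals split the 691 into 87 higher and 604 lower, beside 561 and 559. Without W53 and D63, a choice made after seeing the data, 0 snoRNAs were called (4 at an unadjusted p under 0.05) and the median correlation between them was 0.53 in place of 0.70. In all these settings 18.2% to 31.8% of all tested genes were below an unadjusted p of 0.05.

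With the replicate block, which pairs fish of the same number, 0 snoRNAs were called (1 at an unadjusted p under 0.05) of 1068 called genes, and the log2 fold change of gemin2 was 1.00 with an adjusted p of 0.0668. It also called col1a2 and dcn (adjusted p of 0.0326 and 0.0217). No call changed among the 34 tested hosts of snoRNAs above the count limit, the other tested list genes or the named snoRNAs. Calls did change for LOC100702471 and LOC102083023, whose spans hold snoRNAs below that limit. LOC100702471 lost its call (adjusted p of 0.102 with the block, against 0.0472 without it). LOC102083023 gained one (adjusted p of 0.0464 with the block, against 0.137 without it).

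None of the following values passed the test. Unscaled totals moved the median of all genes to -0.42, against -0.02 with scaling, and single genes moved with it. There the log2 fold change was -0.12 for LOC112847244, -0.36 for LOC112844248, -0.035 for LOC112848295, -0.13 for LOC112847227 and -0.080 for LOC112847245, and, for the host genes themselves, -0.11 for rps3, -0.22 for rps7, -0.34 for eif4a2 and -0.37 for rpl24. These negative signs follow the shift of all genes. Without a filter it was 0.0068 for LOC112842292. Without W53 and D63 it was -0.19 for LOC112847244, -0.24 for LOC112844248, -0.20 for LOC112847227 and -0.16 for LOC112847245. Directions of single snoRNAs also changed with the libraries left out: with each left out in turn, the log2 fold change ranged from -0.41 to 0.55 for LOC112847244, -0.54 to 0.39 for LOC112844248, -0.066 to 0.56 for LOC112848295, -0.99 to 0.42 for LOC112842292, -0.65 to 0.96 for LOC112847227, -0.46 to 0.63 for LOC112847245 and -1.45 to 0.81 for LOC112842548. Count models (edgeR and DESeq2), listed among the alternatives, were not run.

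The difference in the mean summed level was 284.5 CPM, -2625 CPM on unscaled totals, -2777 CPM on totals without the 10 most abundant genes, -146.4 CPM without LOC112847244 and -3031 to 2317 CPM with each library left out, all within 1 SD of a group. The highest snoRNA held 59.2% of the counts as a mean of the 12 shares, and 75 or 55 genes passed a mean count of 5 or 20.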
